A study of Rattus norvegicus with 97 samples.

Results

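Histone and DNA modification enzymes were examined in the nucleus accumbens shell of rat lines bred for high or low alcohol consumption. They were defined by gene symbol as the histone deacetylases (Hdac), sirtuins (Sirt), lysine acetyltransferases (Kat), lysine methyltransferases (Kmt and Setd), lysine demethylases (Kdm), DNA methyltransferases (Dnmt) and Tet dioxygenases. The arrays measured 61 such genes, of 14217 genes with a symbol, and each gene was represented by the probe set that was brightest on average over all arrays. There were 10 histone deacetylases, 6 sirtuins, 7 acetyltransferases, 8 Kmt and 9 Setd methyltransferases, 15 demethylases, 3 DNA methyltransferases and 3 Tet enzymes. Of the 61, 37 had 1 probe set and 24 had several, 105 probe sets in all.

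RNA from the shell was hybridised to 97 Affymetrix rat arrays, 1 per animal. The animals belonged to 5 pairs of lines, each with an alcohol-preferring line named first and a non-preferring line named second: P/NP, HAD1/LAD1, HAD2/LAD2, AA/ANA and sP/sNP. There were 9 animals of LAD1, of sP and of sNP and 10 of every other line. The labels give the line and the preference but no sex, age, treatment or alcohol exposure, and each line is 1 breeding population, so animals of a line are not independent selections. Signals are log2 values after RMA (robust multi-array averaging), and every difference below is the preferring minus the non-preferring line on that log2 scale, with its standard error (SE) and, where a test is given, the p-value of limma adjusted over all 31042 probe sets. A gene was called at an adjusted p under 0.05. The comparison asks which of these enzymes differ with the direction of selection, and in how many of the pairs.

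Acetylation of histone tails by acetyltransferases loosens chromatin and accompanies transcription, and histone deacetylases and sirtuins remove it. Lysine methylation, written by Kmt and Setd enzymes and erased by Kdm enzymes, can mark active or silent chromatin, depending on the residue. Dnmt enzymes methylate cytosine, and Tet enzymes oxidise methylcytosine on the way to its removal. In neurons of the accumbens the class IIa deacetylases Hdac4 and Hdac5 shuttle between cytoplasm and nucleus with neuronal activity, where they restrain the transcription factors of the Mef2 family.

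The signal of 8 arrays departed from their label. Each array was scored over 50 probe sets picked from the rest of its pair, with 0 standing for the non-preferring and 1 for the preferring median. On this scale the array labelled HAD1 28 had -0.0131 and LAD1 37 had 1.06. The array labelled AA 19 had -0.0154 and was most like the sP arrays (mean correlation across probe sets 0.995, against 0.980 with AA); ANA 20 had 0.878 and was most like the sNP arrays. P 9 scored 0.478 and NP 9 scored 1.04. For sP 4 and sNP 4 the scores were 0.399 and 0.483. No label was changed. Values are for all arrays unless stated, and calls in pairs that hold any of the 8 are also given without them. Because the score rests on the line difference itself, leaving these arrays out tends to widen differences and lower p. Values without them are therefore not independent support for a difference. The tissue expressed its defining spiny neuron markers on every array, with a mean over 17 measured markers between 9.65 and 13.26, and array medians lay between 7.82 and 8.02. The lowest marker mean was that of P 5, where 8 markers of neighbouring pallidal and septal tissue averaged 9.54. This spiny neuron mean varied widely within P/NP, from 9.65 to 13.26 in P and from 11.15 to 13.22 in NP.

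Few of these enzymes were called in any pair, and most of their differences were small. No member was called in P/NP, where 1.05% of all probe sets were called, and 2 had an unadjusted p under 0.05 there, against 7.63% of all. In the plain fits 1 member was called in HAD1/LAD1 (1.2% of all probe sets), 4 in HAD2/LAD2 (4.6%), 2 in AA/ANA (2.35%) and 4 in sP/sNP (12.9%). As shares of members these were 1.64%, 6.56%, 3.28% and 6.56%, against 0.95%, 4.47%, 1.84% and 15.1% of all genes. The share of members was thus below that of all genes only in P/NP and sP/sNP. Over the 305 tests of 61 members in 5 pairs there were 11 calls, in 8 genes: Hdac2, Hdac4, Hdac5, Kat6b, Kdm5c, Setd2, Setd4 and Setdb2. These 8 are 13.1% of the members, whereas 20.9% of all genes were called in at least 1 pair. Hdac4, Setd4 and Setdb2 were called in 2 pairs, as were 2.05% of all genes, and no member was called in 3. Of the 61 members, 50 (82.0%) stayed within 0.2 log2 in every pair, against 65.8% of all genes. The medians of the 61 differences lay between -0.02 and 0.01 in the 5 pairs, and those of all genes between -0.01 and 0.01.

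**Figure D1:**
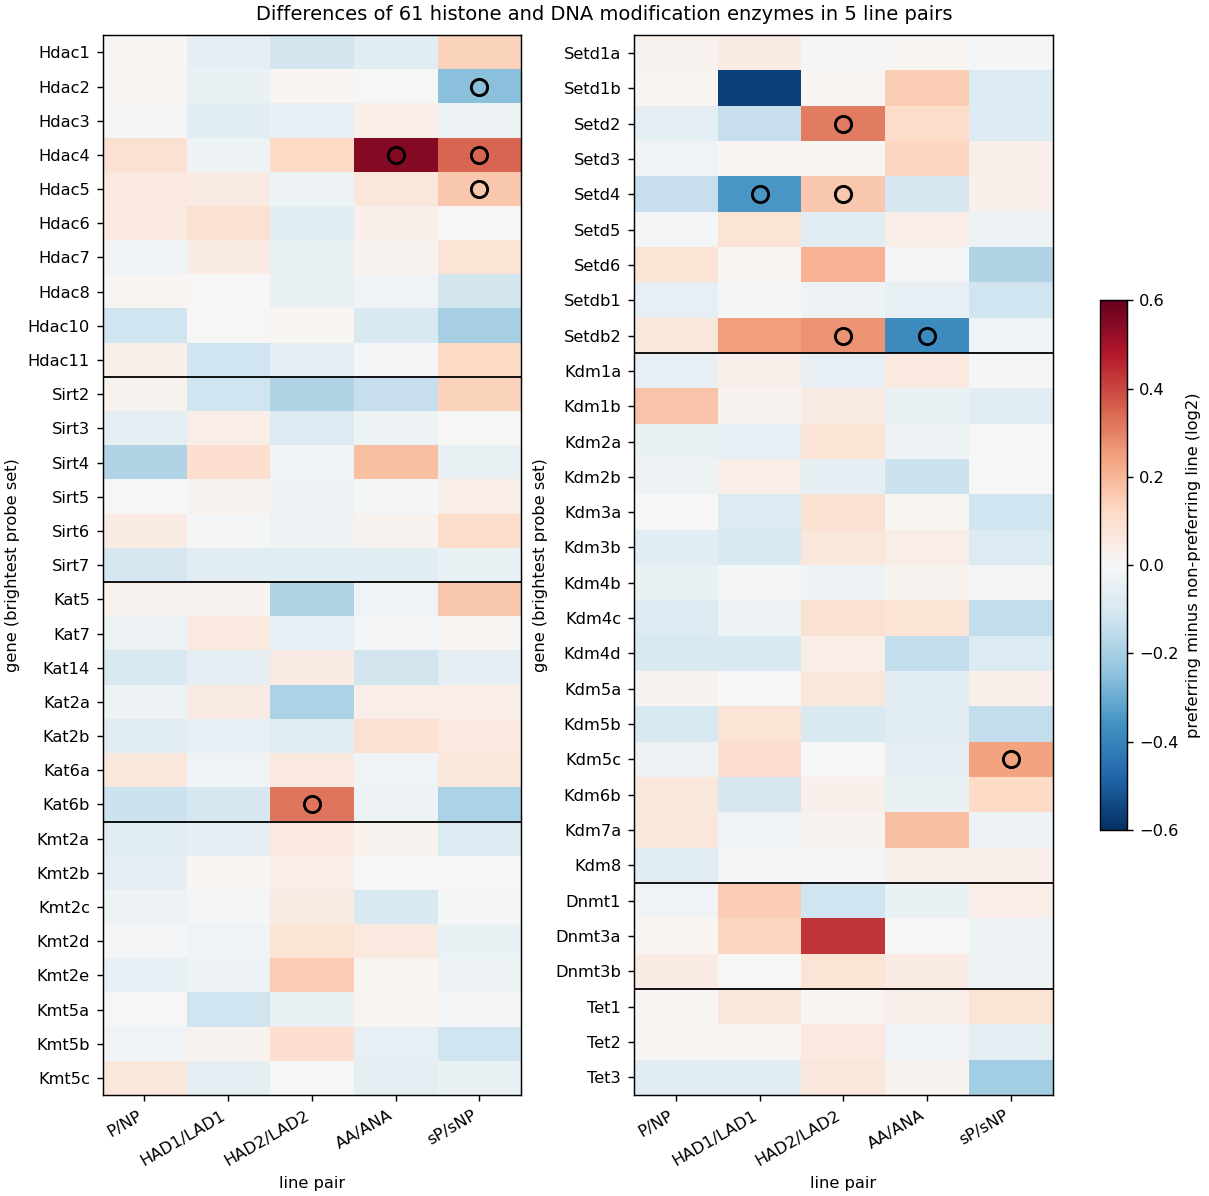
Preferring minus non-preferring line (log2, colour) for each of the 61 enzymes (rows, by family, separated by black lines) in each of the 5 line pairs (columns); circles mark the 11 calls at an adjusted p under 0.05. Most cells are pale, and the darkest are Hdac4 in AA/ANA (0.55) and Setd1b in HAD1/LAD1 (-0.56, not called).

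Hdac4, a class IIa deacetylase, was the enzyme with the largest difference among the calls. In AA/ANA the 10 AA arrays ran from 8.61 to 8.98 (median 8.81) and the 10 ANA arrays from 7.87 to 8.60 (median 8.25). Every AA array lay above every ANA array, and the highest ANA value was that of the array labelled ANA 20. Hdac4 has 1 probe set, as have Hdac2, Setd1b, Setd2, Setd4 and Setdb2, so none could be compared with a second probe set of its own. A probe set that Setdb2 shares with Phf11 had the reverse signs and is given below. Sequence differences under the probes were not tested. Hdac4 was 1.46-fold higher in AA (0.55 ± 0.0723, adjusted p = 8.28e-05), and without AA 19 and ANA 20 the difference was 0.57 (adjusted p = 8.25e-06).

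A second pair showed the same direction. In sP/sNP the 9 sP arrays ran from 8.62 to 8.96 (median 8.79) and the 9 sNP arrays from 8.32 to 8.61 (median 8.43), so that every sP array was above every sNP array. Hdac4 was higher in sP (0.35 ± 0.0533, adjusted p = 0.000471), and 0.38 without sP 4 and sNP 4 (adjusted p = 0.00028). Lines without overlap were rare, at 0.158% of all probe sets in AA/ANA and 0.49% in sP/sNP.

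In the other pairs Hdac4 was not called. The P arrays ran from 8.29 to 9.17 (median 8.62) and the NP arrays from 8.12 to 8.71 (median 8.66), with a difference of 0.09 (SE 0.0955). The highest P value was that of P 9, and without P 9 and NP 9 the P arrays ended at 8.70 and the difference was 0.05. HAD1 arrays ran from 8.62 to 8.88 (median 8.76) and LAD1 arrays from 8.59 to 9.12 (median 8.72), with a difference of -0.03 that became 0.02 without the departing arrays. HAD2 arrays ran from 8.81 to 9.23 (median 8.93) and LAD2 arrays from 8.59 to 9.04 (median 8.89), with a difference of 0.12. The lines of each of these pairs overlapped. An F test over the 10 lines found the 5 differences unequal (adjusted p = 2.66e-05), and the AA/ANA difference exceeded the mean of the other 4 pairs by 0.41 ± 0.0799 (adjusted p = 0.000149).

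**Figure D2:**
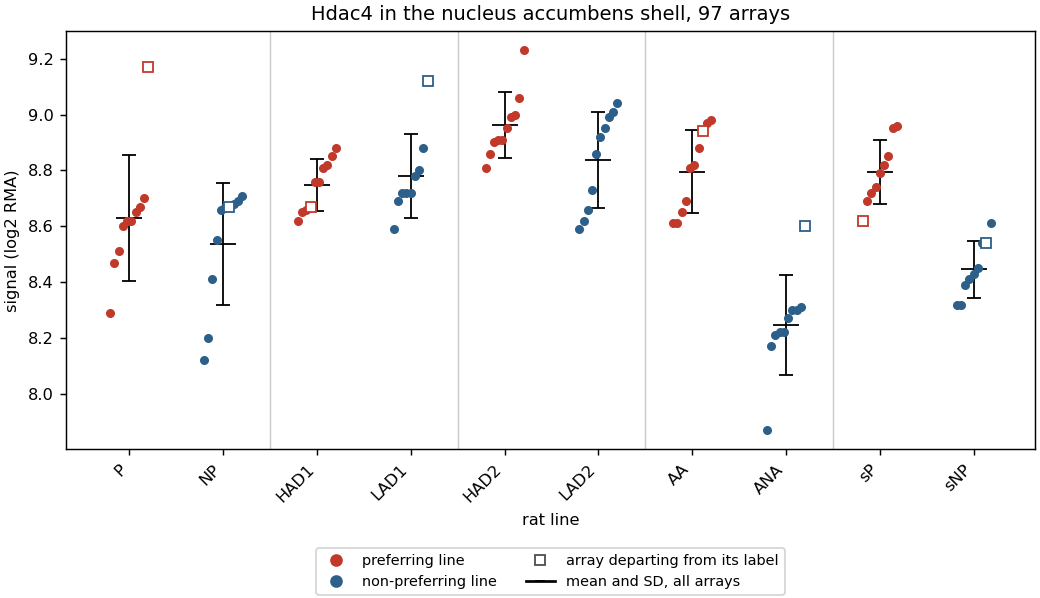
Hdac4 signal (log2 RMA) of each of the 97 arrays by line, with the mean and SD of each line in black; open squares are the 8 arrays that depart from their label. All AA points (8.61 to 8.98) lie above all ANA points (7.87 to 8.60), and all sP points above all sNP points, while the lines of the other 3 pairs overlap.

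The start of Hdac4 in the reference genome is shown because Hdac4 is the member whose difference was largest among the calls, and that of Setd4 because Setd4 was called in opposite directions in 2 pairs. Both are RefSeq windows on the rat build GRCr8, read on the gene's strand from 250 bases before to 50 after the annotated start: chr9:100197588-100197887, minus strand, for Hdac4 and chr11:46343975-46344274, minus strand, for Setd4. The reference is another strain, and the lines' own sequence was not used here. Capitals mark any match, on either strand, to 4 motifs: TGACG, the core of the cyclic AMP response element, GGGCGG, the GC box, CACGTG, an E-box, and the palindromic Mef2 site.
Hdac4: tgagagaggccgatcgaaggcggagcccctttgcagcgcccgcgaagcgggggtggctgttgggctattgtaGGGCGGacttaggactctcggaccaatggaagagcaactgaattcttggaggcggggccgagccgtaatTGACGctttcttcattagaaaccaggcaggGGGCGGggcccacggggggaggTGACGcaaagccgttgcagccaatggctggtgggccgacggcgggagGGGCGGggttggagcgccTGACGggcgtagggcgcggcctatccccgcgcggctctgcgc
Setd4: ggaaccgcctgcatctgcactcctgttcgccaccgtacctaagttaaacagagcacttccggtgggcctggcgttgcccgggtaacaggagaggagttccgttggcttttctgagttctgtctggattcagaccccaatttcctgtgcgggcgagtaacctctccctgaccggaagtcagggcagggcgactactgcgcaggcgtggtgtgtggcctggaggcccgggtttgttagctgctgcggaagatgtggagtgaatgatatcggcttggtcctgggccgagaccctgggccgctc
The Hdac4 window held 3 matches to TGACG and 3 to GGGCGG, none overlapping, and none to the other motifs, with 30 CpG dinucleotides and 67.0% G or C. The Setd4 window held none of the 4 motifs, with 18 CpG and 60.3% G or C. Over 27457 promoter windows of the same length, 22% held TGACG, 34.9% GGGCGG, 6.65% CACGTG and 3.83% the Mef2 site, and the median number of CpG was 7. These matches describe the letters of the reference only.

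Other deacetylases were called in sP/sNP only. Hdac2, a class I deacetylase of the Sin3 and NuRD complexes, ran from 11.19 to 11.70 in sP (median 11.42) and from 11.39 to 11.90 in sNP (median 11.69). It was 1.19-fold lower in sP (-0.25 ± 0.0699, adjusted p = 0.0329), with overlapping lines, and at -0.28 without sP 4 and sNP 4 (adjusted p = 0.0188). Its differences in the other 4 pairs lay between -0.04 and 0.01, and the sP/sNP difference was below their mean by 0.24 (-0.24 ± 0.0752, adjusted p = 0.0338). Hdac5, the class IIa relative of Hdac4, ran from 10.68 to 10.95 in sP (median 10.80) and from 10.56 to 10.84 in sNP (median 10.65). It was 1.12-fold higher in sP (0.16 ± 0.0488, adjusted p = 0.0404), and at 0.18 without sP 4 and sNP 4 (adjusted p = 0.0256). Its other, dimmer probe set showed -0.05 (adjusted p = 0.715). Hdac10, a deacetylase that acts on polyamines, was the uncalled deacetylase with the smallest adjusted p (-0.20, adjusted p = 0.055 in sP/sNP).

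In sP/sNP 3 members were called higher and 1 lower, beside 7.08% and 5.83% of all probe sets. Markers of the tissue moved with this pair. Of 17 spiny neuron markers 14 were called lower in sP and none higher (median difference -0.93), with means per array of 10.44 to 12.54 in sP and 11.83 to 12.78 in sNP. Of 8 markers of neighbouring pallidal and septal tissue 2 were called higher and none lower (median 0.40), with 8.44 to 9.14 in sP and 7.77 to 8.79 in sNP. A marker index, the first mean minus the second, averaged 2.77 ± 1.14 (SD, n = 9) in sP and 4.17 ± 0.65 (SD, n = 9) in sNP (two-sided exact permutation test, p = 0.00633; adjusted over 10 tests, p = 0.0633). With that index as a covariate 0.999% of all probe sets and 1 member were called. Hdac4 remained at 0.37 ± 0.0678 (adjusted p = 0.00697), whereas Hdac2 was at -0.06, Hdac5 at 0.03 and the demethylase Kdm5c at 0.03, each with an adjusted p of 1.0. With the 3' minus 5' Gapdh signal, which moves with RNA quality and with labelling, as the covariate, 2.78% of all probe sets and 1 member, Hdac4 (0.38, adjusted p = 0.000251), were called. Here the other 3 kept most of their size, with Hdac2 at -0.25 (adjusted p = 0.079), Kdm5c at 0.21 (adjusted p = 0.113) and Hdac5 at 0.14 (adjusted p = 0.102). In pieces of tissue, fewer cells of a type and less RNA per cell cannot be told apart.

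**Figure D3:**
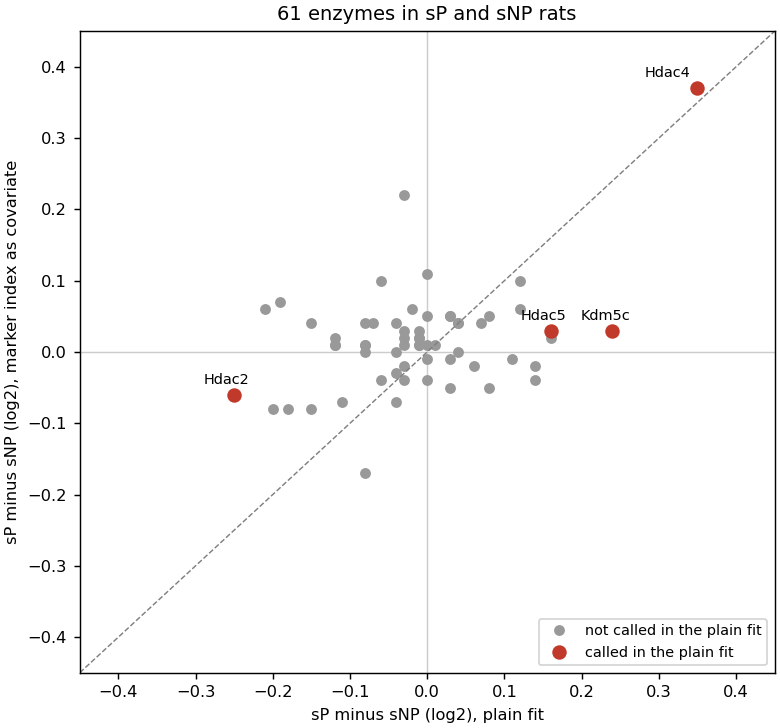
Difference of each of the 61 enzymes between sP and sNP (log2) in the plain fit (horizontal axis) and with the marker index of each array as a covariate (vertical axis); the dashed line is equality, and red points are the 4 calls of the plain fit. Hdac4 keeps its place (0.35 and 0.37), while Hdac2, Hdac5 and Kdm5c move to between -0.06 and 0.03.

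Without sP 4 and sNP 4, 15% of all probe sets and 6 members were called in this pair. Kdm5c was no longer among them, at 0.25 (adjusted p = 0.0516). The 3 added were Hdac10 (-0.24, adjusted p = 0.0289), the demethylase Kdm4c (-0.17, adjusted p = 0.043), whose signal was low (medians 4.88 in sP and 5.05 in sNP), and the methyltransferase Setd6 (-0.20, adjusted p = 0.0487).

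None of the 6 sirtuins, deacetylases that consume NAD, was called in any pair, and their 30 differences lay between -0.18 and 0.18, with 4 at an unadjusted limma p under 0.05. Sirt4, a mitochondrial sirtuin, had the smallest adjusted p: P arrays ran from 6.54 to 6.90 (median 6.84) and NP arrays from 6.87 to 7.12 (median 6.96), a difference of -0.18 ± 0.0484 (adjusted p = 0.0927). In AA/ANA Sirt4 differed by 0.18 (adjusted p = 0.202) in the other direction, with AA arrays from 6.86 to 7.30 and ANA arrays from 6.72 to 7.10. Its dimmer probe set had the opposite sign in AA/ANA (-0.20, adjusted p = 0.212) and was at -0.06 in P/NP, neither called. Both Sirt4 probe sets were dim, averaging 6.84 and 6.39 over all arrays, below the lowest array median of 7.82. The part of low signal was not tested. On the brighter probe set the 5 differences of Sirt4 were unequal (adjusted p = 0.00667). There P/NP was below the mean of the other 4 pairs (-0.23, adjusted p = 0.0273) and AA/ANA above it (0.21, adjusted p = 0.0483). Sirt7 was lower in the preferring line in all 5 pairs, by small amounts (-0.10 to -0.04), none of them called. The methyltransferase Setdb1 was also lower in all 5 pairs (-0.12 to -0.01, none called), and Tet1 was higher in all 5. These 3 were the only ones of the 61 members with the same sign in all 5 pairs. Whether that number exceeds chance was not tested.

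Among 7 acetyltransferases, 1 was called. Kat6b, the catalytic subunit of a complex that acetylates histone H3, ran from 10.58 to 10.99 in HAD2 (median 10.88) and from 10.23 to 10.75 in LAD2 (median 10.58). It was higher in HAD2 (0.32 ± 0.0614, adjusted p = 0.00211), and the lines overlapped only through the lowest HAD2 array. Its 2 dimmer probe sets showed 0.12 (adjusted p = 0.457) and 0.00 (adjusted p = 0.994), and the mean of the 3 gave 0.14 (adjusted p = 0.0867). Kat6b was at -0.19 in sP/sNP and -0.13 in P/NP, neither called, and HAD2/LAD2 exceeded the mean of the other pairs by 0.43 ± 0.101 (adjusted p = 0.0025). Kat5, the Tip60 acetyltransferase, was the uncalled member with the smallest adjusted p (0.16 in sP/sNP, adjusted p = 0.114), with -0.18 in HAD2/LAD2. Kat2a, which is Gcn5, differed by -0.19 in HAD2/LAD2 (adjusted p = 0.247), below the mean of the other pairs by 0.21 (-0.21 ± 0.0603, adjusted p = 0.0209).

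The Setd methyltransferases held 5 of the 11 calls. Setd2, which lays down a histone methyl mark along transcribed genes, ran from 9.25 to 9.54 in HAD2 (median 9.37) and from 8.87 to 9.24 in LAD2 (median 9.09). Every HAD2 array was above every LAD2 array, as for 0.918% of all probe sets in that pair, and Setd2 was higher in HAD2 (0.31 ± 0.055, adjusted p = 0.000892). In the replicate selection HAD1/LAD1 the difference was -0.14 and not called, with LAD1 arrays spread from 8.99 to 9.82. Without HAD1 28 and LAD1 37 the LAD1 arrays began at 9.24 and the difference was -0.24 (adjusted p = 0.0853, not called). The 5 differences of Setd2 were unequal (adjusted p = 0.00255), with HAD2/LAD2 above the mean of the other pairs by 0.35 ± 0.0808 (adjusted p = 0.00161). HAD1/LAD1 was at -0.21 from the mean of the others (adjusted p = 0.248), and at -0.32 without the departing arrays (adjusted p = 0.000434).

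Setd4, a methyltransferase whose substrates are not settled, was called in both HAD/LAD pairs, in opposite directions. HAD1 arrays ran from 10.30 to 10.98 (median 10.40) and LAD1 arrays from 10.47 to 11.02 (median 10.84). Setd4 was lower in HAD1 (-0.35 ± 0.0794, adjusted p = 0.031). The overlap came from the departing arrays, which were picked by their place on line differences. Without HAD1 28 and LAD1 37, HAD1 ended at 10.55 and LAD1 began at 10.73, and no array overlapped. The difference was then -0.45 ± 0.0498 (adjusted p = 6.61e-06), which is not independent support. HAD2 arrays ran from 10.85 to 11.08 (median 10.91) and LAD2 arrays from 10.61 to 10.94 (median 10.77), with Setd4 1.12-fold higher in HAD2 (0.16 ± 0.0433, adjusted p = 0.0293). The HAD1/LAD1 call was lost with the marker index described above as a covariate (-0.32, adjusted p = 0.106), and that in HAD2/LAD2 in 1 fit over all lines (0.16, adjusted p = 0.0695). The 5 differences were unequal (adjusted p = 3.12e-06). HAD1/LAD1 lay below the mean of the other pairs (-0.34, adjusted p = 9.04e-05) and HAD2/LAD2 above it (0.30, adjusted p = 0.000252).

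Setdb2, a methyltransferase of histone H3 linked to silent chromatin, was also called in opposite directions, in HAD2/LAD2 and AA/ANA. HAD2 arrays ran from 8.64 to 9.19 (median 8.77) and LAD2 arrays from 8.39 to 8.69 (median 8.56), 1.2-fold higher in HAD2 (0.27 ± 0.0611, adjusted p = 0.0094). AA arrays ran from 7.81 to 8.27 (median 8.06) and ANA arrays from 8.19 to 8.69 (median 8.46), lower in AA (-0.38 ± 0.0713, adjusted p = 0.00289). Both pairs overlapped slightly, and without AA 19 and ANA 20 the AA/ANA difference was -0.43 (adjusted p = 0.000575). In HAD1/LAD1 Setdb2 was at 0.25 without being called. The 5 differences were unequal (adjusted p = 5.16e-07), with AA/ANA at -0.53 ± 0.0796 from the mean of the other pairs (adjusted p = 6.43e-07) and HAD2/LAD2 at 0.29 (adjusted p = 0.0156). A probe set assigned to both Setdb2 and Phf11 had the reverse signs, 0.27 in AA/ANA (adjusted p = 0.121) and -0.25 in HAD2/LAD2 (adjusted p = 0.0681).

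**Figure D4:**
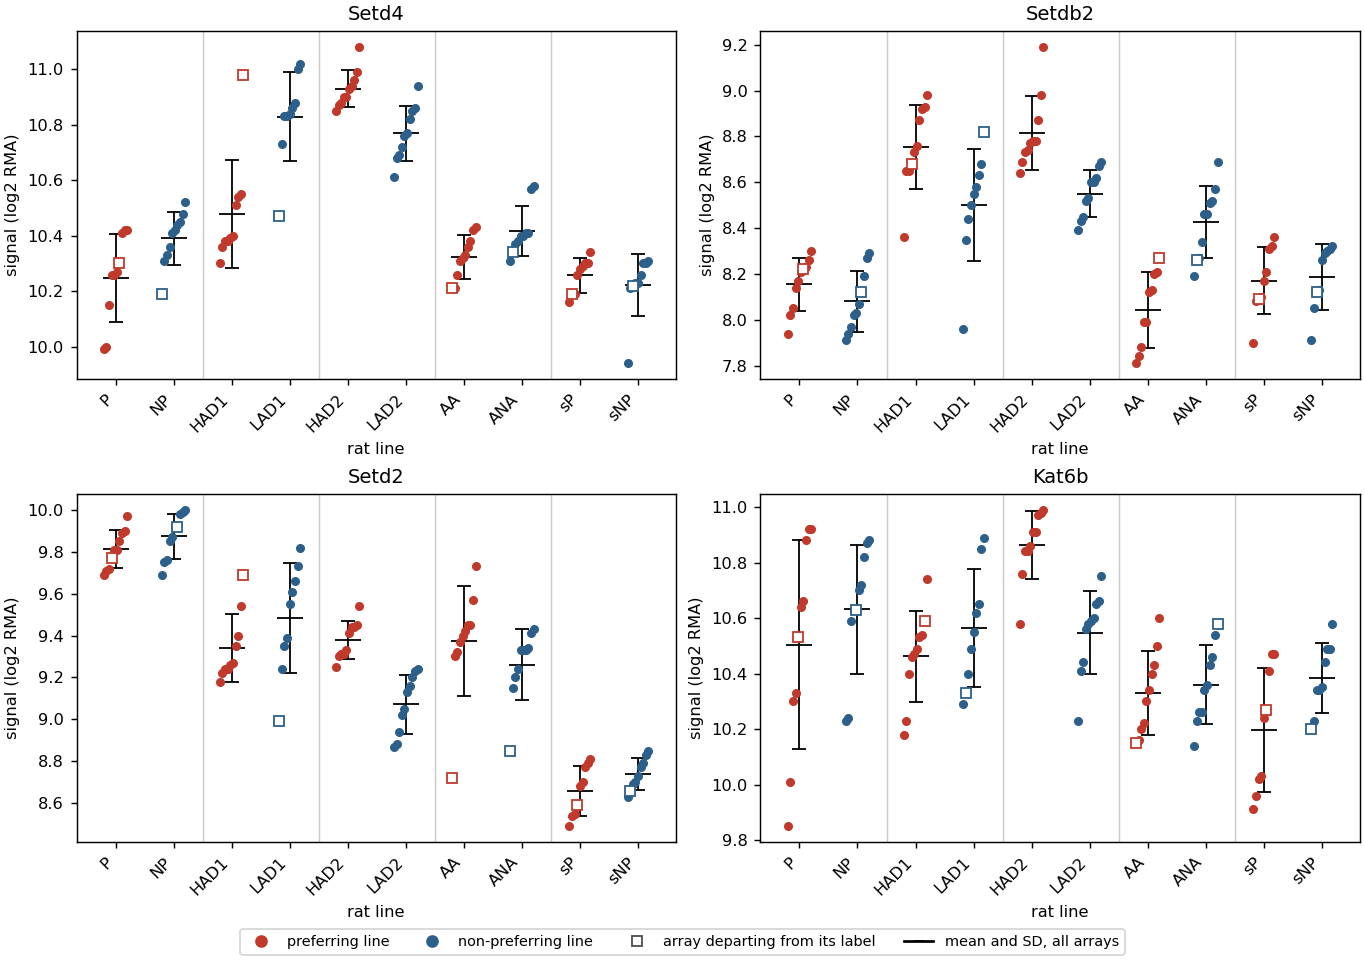
Signals (log2 RMA) of Setd4, Setdb2, Setd2 and Kat6b on each of the 97 arrays by line, with the mean and SD of each line; open squares are the 8 arrays that depart from their label. Setd4 is lower in HAD1 and higher in HAD2 than in the matched low-drinking line, with the 2 HAD1/LAD1 squares in the other line's range, and Setdb2 is higher in HAD2 and lower in AA than in LAD2 and ANA.

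Setd1b, a subunit of a complex that methylates histone H3 at promoters, was not called with all arrays. HAD1 arrays ran from 8.98 to 9.81 (median 9.36) and LAD1 arrays from 9.44 to 10.92 (median 9.76), a difference of -0.56 ± 0.156 (adjusted p = 0.0914). Without the departing arrays it was -0.64 ± 0.162 (adjusted p = 0.0279), and Setd1b and Setd4 were then the 2 members called in HAD1/LAD1, beside 3.98% of all probe sets. With all arrays HAD1/LAD1 was below the mean of the other pairs for Setd1b (-0.59 ± 0.132, adjusted p = 0.00254). Its signal was low in P/NP and HAD2/LAD2, with means of 6.50 in P, 6.49 in NP, 5.70 in HAD2 and 5.69 in LAD2. These lie below the lowest array median of 7.82, and the part of low signal in this contrast was not tested. The uncalled Setd member with the smallest adjusted p was Setd6 (-0.18 in sP/sNP, adjusted p = 0.0552; 0.21 in HAD2/LAD2, not called).

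None of the 8 Kmt methyltransferases was called in any pair, with 40 differences between -0.12 and 0.15 and 2 at an unadjusted limma p under 0.05. Kmt5b, which methylates histone H4, had the smallest adjusted p (-0.12 in sP/sNP, adjusted p = 0.163). Kmt2a, the Mll1 enzyme of active promoters, was at -0.08 in sP/sNP on its brightest probe set. One of its dimmer probe sets, chosen after its values were seen, ran from 5.42 to 6.62 in sP (median 5.59) and from 5.77 to 7.35 in sNP (median 7.03), a difference of -1.11 ± 0.193 (adjusted p = 0.00183). That difference was -0.90 (adjusted p = 0.0994) with the marker index as a covariate, and the remaining 2 probe sets of Kmt2a were at -0.02 and 0.03.

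Of the 15 demethylases 1 was called. Kdm5c, an X-linked demethylase of a methyl mark of active promoters, ran from 9.02 to 9.47 in sP (median 9.28) and from 8.80 to 9.35 in sNP (median 9.04). It was 1.18-fold higher in sP (0.24 ± 0.0749, adjusted p = 0.045), with overlapping lines. The call was lost under 7 of 10 alternatives, among them without sP 4 and sNP 4 (0.25, adjusted p = 0.0516) and with the marker index (0.03, adjusted p = 1.0). Its 2 dimmer probe sets were at -0.02 and -0.04 in that pair.

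Kdm5b, a second demethylase of that family, was not called on its brightest probe set in any pair. The P arrays ran from 9.25 to 9.89 (median 9.72) and the NP arrays from 9.44 to 9.97 (median 9.72), with a difference of -0.09. HAD1 arrays ran from 10.28 to 10.66 (median 10.48) and LAD1 arrays from 10.07 to 10.56 (median 10.44), with a difference of 0.08 that was 0.04 without the departing arrays. The lines of both pairs covered nearly the same range. HAD2 arrays ran from 10.38 to 10.58 (median 10.47) and LAD2 arrays from 10.20 to 10.77 (median 10.58), with a difference of -0.09. AA arrays ran from 9.35 to 9.73 (median 9.50) and ANA arrays from 9.45 to 9.82 (median 9.61), with a difference of -0.07 (SE 0.057) that was -0.04 without AA 19 and ANA 20. In sP/sNP the sP arrays ran from 9.33 to 9.84 (median 9.51) and the sNP arrays from 9.63 to 9.91 (median 9.70), with a difference of -0.15 ± 0.0748 (adjusted p = 0.176) that was 0.04 with the marker index as a covariate. The smallest adjusted p of Kdm5b over the 5 pairs was thus 0.176, and its 5 differences were not called unequal (adjusted p = 0.491).

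A second Kdm5b probe set, of nearly the same mean signal, was called in AA/ANA. AA arrays ran from 9.18 to 9.60 (median 9.39) and ANA arrays from 9.77 to 10.10 (median 9.92), so that every AA array was below every ANA array. The difference was -0.52 ± 0.0602 (adjusted p = 1.88e-05; -0.55 without AA 19 and ANA 20), the reverse in sign of Hdac4 in the same animals. The other 4 probe sets of Kdm5b were between -0.20 and -0.04 in AA/ANA, and none of them was called. A single probe set can differ through a sequence difference under its probes, which was not tested. This probe set was also lower in sP (-0.28, adjusted p = 0.0746, not called), where the marker index differed. In HAD1/LAD1 it was at -0.17 (adjusted p = 0.117, not called), against 0.08 for the brightest probe set. It was at -0.10 in P/NP and 0.00 in HAD2/LAD2.

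**Figure D5:**
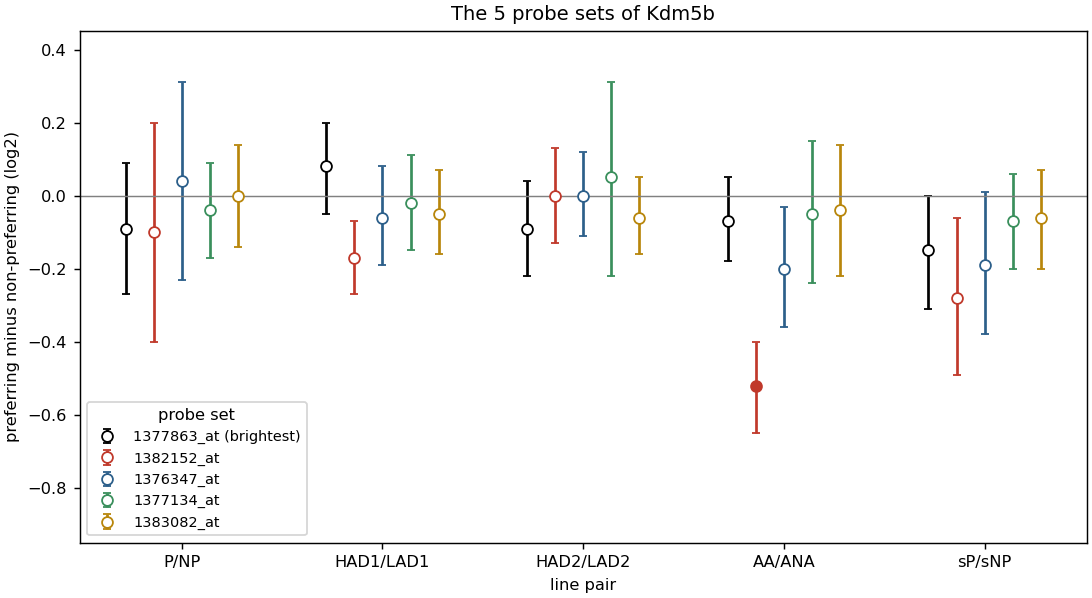
Preferring minus non-preferring line (log2) of the 5 probe sets of Kdm5b in each of the 5 line pairs, with 95% confidence intervals; the filled point is the call at an adjusted p under 0.05. The call is the second brightest probe set in AA/ANA (-0.52), while the brightest probe set has -0.07 there.

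Enzymes of DNA methylation were not called in any pair. By limma 3 of the 15 Dnmt tests and 1 of the 15 Tet tests had an unadjusted p under 0.05. Dnmt1, the maintenance methyltransferase, ran from 9.39 to 9.69 in HAD1 and from 9.16 to 9.52 in LAD1 (0.15, adjusted p = 0.214), and from 9.45 to 9.76 in HAD2 and 9.55 to 9.84 in LAD2 (-0.12, adjusted p = 0.186). These opposite signs in the replicate selections went with unequal differences over the 5 pairs (adjusted p = 0.00522); HAD1/LAD1 was above the mean of the other pairs (0.19, adjusted p = 0.0124) and HAD2/LAD2 below it (-0.15, adjusted p = 0.031). Dnmt3a, a de novo methyltransferase, had a large but uncertain difference in HAD2/LAD2 (0.43 ± 0.167, adjusted p = 0.2). Its dimmer probe set, named after its values were seen, was called in sP/sNP (-0.24 ± 0.0737, adjusted p = 0.0431), and was at -0.10 with the marker index as a covariate. The 3 Tet enzymes stayed between -0.21 and 0.08, with Tet3 in sP/sNP at the low end (-0.21, adjusted p = 0.137). Tet1 was the 1 member above 0 in all 5 pairs, by 0.01 to 0.08, and no pair was called.

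All 4 members called in HAD2/LAD2 were higher in HAD2 (Kat6b, Setd2, Setd4 and Setdb2), in a pair where 255 of the 636 genes called were higher. In that pair 5 of 8 oligodendrocyte markers were called lower and none higher (median -0.30), with means per array from 11.41 to 11.79 in HAD2 and from 11.68 to 12.32 in LAD2. Their part in these differences was not tested. With the index of spiny neuron against pallidal markers as a covariate the 4 remained called, at 0.30 (Kat6b and Setd2), 0.27 (Setdb2) and 0.16 (Setd4). That index averaged 4.75 in HAD2 and 4.59 in LAD2. It holds no oligodendrocyte markers, so this fit does not bear on their difference.

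Averaged over the 5 pairs, Hdac4 was the only member called (0.22 ± 0.0323, adjusted p = 8.99e-07), beside 3.37% of all probe sets. This average takes its error from the animals. With the 5 pair differences as the replicates no probe set was called (0.0%); Hdac4 had an adjusted p of 0.948, and 2 members had an unadjusted p under 0.05, beside 3.91% of all. Without the departing arrays 4.94% of all probe sets and 3 members were called in the average: Hdac4 (0.23), Setd4 (-0.10, adjusted p = 0.000532) and the demethylase Kdm4d (-0.10, adjusted p = 0.0142). Kdm5b averaged -0.06 ± 0.0311 (adjusted p = 0.326).

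The 5 differences were unequal for 8 members, 13.1% of them, against 11.7% of all probe sets: Hdac4, Setd4, Setdb2, Setd2, Kat6b, Sirt4, Setd1b and Dnmt1. Without the departing arrays there were 9 (17.5% of all probe sets), Hdac2 being added. A pair was set apart from the mean of the other 4 for 1 member in P/NP (2.45% of all probe sets), 4 in HAD1/LAD1 (2.26%), 6 in HAD2/LAD2 (5.08%), 3 in AA/ANA (3.17%) and 1 in sP/sNP (7.21%). Without the departing arrays these were 6 in HAD1/LAD1 (4.17%), with Setd2 and Setdb2 added, and 5 in sP/sNP (14.8%), with Hdac1 (0.22), Hdac11 (0.19), Setd4 (0.18) and Sirt2 (0.30) added. With all arrays and besides those already given, Hdac4 was below the mean of the other pairs in HAD1/LAD1 (-0.31, adjusted p = 0.0163). Without the departing arrays the counts of members called were also 0 in P/NP (661 probe sets called) and 2 in AA/ANA (4.44%).

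Other chromatin genes, from a list of 128 of which 117 were measured, were also seldom called outside sP/sNP. By limma none was called in P/NP or HAD1/LAD1, where 0.935% and 0.95% of all genes were called and 4 and 11 of the list had an unadjusted p under 0.05. In HAD2/LAD2 3 were called, 2.56% against 4.47% of all genes: Ncor1, the corepressor that holds Hdac3, was higher (0.19, adjusted p = 0.00575), and the kinase Camk2a (-0.91, adjusted p = 0.000391) and the arginine methyltransferase Prmt2 (-0.43, adjusted p = 0.00603) were lower. Camk2a averaged 7.8 in HAD2 and 8.7 in LAD2, against 12.77 in sP and 13.49 in sNP. In AA/ANA only Apobec1, a cytidine deaminase, was called (-0.54, adjusted p = 0.0131), 0.855% against 1.84% of all genes. Its signal was low, with means of 5.38 in AA and 5.91 in ANA, below the lowest array median of 7.82. In sP/sNP 19 were called, 16.2% against 15.1% of all genes, 8 higher and 11 lower, led by Prmt8 (-0.52, adjusted p = 0.00228), Ncor1 (-0.26, adjusted p = 0.0208), Smyd3 (-0.17, adjusted p = 0.0217) and Ing1 (0.22, adjusted p = 0.0226). With the marker index as a covariate these 4 were at -0.28, -0.07, -0.12 and 0.08, none called.

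Of 13 measured partners of the class IIa deacetylases, 4 were called in sP/sNP (30.8%, against 15.1% of all genes), all lower in sP. This part of the chromatin list had the highest share called in that pair, the other parts lying between 0.0% and 23.1%. The part and its 4 genes are named after their values were seen. These genes were the transcription factors Mef2c (-0.82, adjusted p = 0.0307) and Mef2a (-0.32, adjusted p = 0.044), the kinase Camk2a (-0.72, adjusted p = 0.0419) and the adaptor Ywhaz (-0.26, adjusted p = 0.0376). With the marker index as a covariate they were at -0.08, -0.01, 0.04 and -0.03. In AA/ANA none of the 13 was called by limma, and 1 had an unadjusted p under 0.05.

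The 20 measured genes nearest each called member in the current gene order were counted, beside the share of all genes called. In sP/sNP, where 15.2% of the genes placed in that order were called, 5 of 20 were called around Hdac2, 4 around Kdm5c, 3 around Hdac4 and 2 around Hdac5. In HAD2/LAD2 (4.47%) 2 of 20 were called around Setd2, 1 around Setd4, 1 around Setdb2 and none of 18 around Kat6b, where 3 had an unadjusted limma p under 0.05. In AA/ANA (1.84%) none was called by limma around Hdac4 or Setdb2, and 3 and 1 had an unadjusted p under 0.05. In HAD1/LAD1 (0.953%) none was called by limma around Setd4, with 0 at an unadjusted p under 0.05, and 1 was around Setd1b, or 4 without the departing arrays (3.51%).

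Adjacent genes that were called went with their member in some cases and against it in others, and all 5 of them are named. Beside Hdac2, Marcks was lower in sP (-0.26, adjusted p = 0.0451), and beside Hdac5, G6pc3 was higher in sP (0.33, adjusted p = 0.0387), each in the direction of its member. Beside Hdac4, Cops9 was higher in sP (0.25, adjusted p = 0.0129), as Hdac4 was, and higher in HAD2 (0.52, adjusted p = 0.000199), where Hdac4 was not called. Beside Setd4, the carbonyl reductase gene Cbr1 was lower in HAD2 (-0.63 ± 0.0758, adjusted p = 6.56e-06), against the direction of Setd4, and was not called in HAD1/LAD1 (-0.14, adjusted p = 0.79). Beside Setd1b, Rhof was higher in HAD1 (0.60, adjusted p = 0.0209), where Setd1b was at -0.56 without being called. Rhof was lower in HAD2 (-0.47, adjusted p = 0.0493), where Setd1b was not called either.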

How the data were processed

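The authors deposited log2 signals made with RMA, per the submitters' processing notes; no version was stated. Per the labels' protocols, 2 amplification cycles started from 25 ng of RNA. Values were used as deposited, after 57 control probe sets were left out. Gene names came from the platform annotation: of 31042 probe sets 20826 had 1 symbol, 436 several and 9780 none. A current rat gene table and RefSeq windows (build GRCr8) served for gene order and promoters; 60 members matched the table and 51 had a window.

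Lines were compared per pair with limma 3.58.1 (lmFit, then eBayes; R 4.3.3; two-sided, Benjamini-Hochberg over all probe sets), and over 10 lines for the average, the F test of unequal differences and each pair against the other 4. The fits were tested on simulated data. The number of arrays limits the precision: the median half-width of a member's 95% interval was 0.120 to 0.141 log2. Members, lists and rules were chosen with earlier results of these data known. Named were called members, Hdac4 and Kdm5b, the uncalled member with the smallest adjusted p of each family, and up to 4 called chromatin genes per pair. The lines of P/NP and of sP/sNP share animal numbers, which the labels do not explain and the main fits did not use. By correlation, P arrays best matched the NP array of their own number in 4 of 10 cases, and sP arrays that of sNP in 2 of 9. Whether the numbers mark matched animals is not known. Alternatives covered the arrays left out, scaling, filters, covariates and the fit. Markers of astrocytes, oligodendrocytes, microglia, endothelial cells, blood cells and choroid plexus were also measured; called markers are given under Other observations.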

Additional observations from a re-analysis of the deposited data

Results flagged for a closer look

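For 8 members the difference between preferring and non-preferring line was not the same in the 5 pairs, by the F test of limma over 10 lines. The adjusted p was 5.16e-07 for Setdb2, 3.12e-06 for Setd4, 2.66e-05 for Hdac4, 0.00255 for Setd2, 0.00522 for Dnmt1, 0.00667 for Sirt4, 0.0077 for Setd1b and 0.0176 for Kat6b. Setd4 and Setdb2 were called in both directions, Setd4 at -0.35 in HAD1/LAD1 and 0.16 in HAD2/LAD2, and Setdb2 at 0.27 in HAD2/LAD2 and -0.38 in AA/ANA. The other 6 also had differences of both signs, but no call in both. Of the 8, Sirt4 had a low signal in every line, and Setd1b in P/NP and HAD2/LAD2.

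Among 38 groups tested for an animal far from the rest of its line, 2 had one, and chance gives about 1 in 20. The array labelled P 9 had the highest Hdac4 of its line, at 9.17 against 8.70 for the next. The array labelled HAD1 28 had the highest Setd4, at 10.98 against 10.55. Both are among the 8 arrays that depart from their label.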

How the results depend on the processing

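Hdac4 in AA/ANA (0.54 to 0.57) and in sP/sNP (0.34 to 0.38), Setd2 in HAD2/LAD2 (0.30 to 0.32) and Setdb2 in HAD2/LAD2 and AA/ANA kept their direction and their side of the threshold under each alternative run, of which the mean of a gene's probe sets is the same value for genes with 1. Counts moved more. Without the departing arrays the called probe sets were 661 in P/NP, 1237 in HAD1/LAD1 and 1378 in AA/ANA (all arrays 326, 371 and 728), with 2 members called in HAD1/LAD1 and 3 in the average. With the marker index as a covariate they were 959 in P/NP, 115 in HAD1/LAD1 and 310 in sP/sNP (4006 without it), with 1, 0 and 1 members; with the Gapdh measure they were 180 in P/NP and 863 in sP/sNP, there with 1 member. In 1 fit over all 10 lines they were 759 in P/NP and 743 in HAD1/LAD1, with 4 members in HAD1/LAD1 and 2 in sP/sNP. With the 5 pair differences as replicates 0 members were called. With animal number as a block 197 probe sets were called in P/NP, with 0 members, and 9 members in sP/sNP; the animals did not correlate best with their own number in every pair (4 of 10 and 2 of 9).

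The difference of Hdac4 in HAD1/LAD1 turned to 0.02 without the departing arrays, that of Kdm5b in HAD1/LAD1 to -0.04 as the mean of its probe sets, and that of Kdm5b in sP/sNP to 0.04 with the marker index. None of these was called before or after, and the cause was not tested. Kdm5c lost its call under 7 of 10 alternatives (0.03 to 0.25), Hdac5 under 5 (0.03 to 0.18) and Hdac2 under 2 (-0.28 to -0.06), the smallest sizes with the marker index. Setd4 was not called in HAD1/LAD1 with the marker index (-0.32, adjusted p = 0.106), nor in HAD2/LAD2 in 1 fit over all lines (0.16, adjusted p = 0.0695).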

Other observations

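Line means of a member spanned 0.71 log2 over the 10 lines in the median, and more than 2 log2 for 4 members. Setd1b was lowest in LAD2 (5.69) and highest in sNP (11.05), Kdm4c lowest in sP (4.89) and highest in LAD1 (7.61), Dnmt3a lowest in LAD1 (7.55) and highest in AA (9.68), and Setd5 lowest in LAD1 (8.60) and highest in NP (10.67). The Gapdh 3' minus 5' measure also differed by pair, with means of 4.71 in HAD1, 2.91 in HAD2, 0.40 in sP, 0.11 in P and 0.09 in AA, and these level differences between pairs were not tested.

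Of the other marker lists, microglial markers had 1 of 9 called lower in P, 1 higher and 2 lower in HAD2 and 1 higher in AA. Endothelial markers had 1 of 6 called higher in HAD1, 3 lower in HAD2 and 2 lower in sP. Astrocyte markers had 1 of 7 called higher in AA and 3 in sP. Oligodendrocyte markers had 1 of 8 called higher in sP, beside the 5 lower in HAD2, and blood cell markers had 1 of 3 called lower in HAD2. No choroid plexus marker was called in any pair.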
